A study of Drosophila melanogaster with 3 samples.

Results

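Prospero peaks on chromosome 4 of Drosophila melanogaster were described, chosen by their chromosome alone from the list of peaks that the authors called on the pooled reads of the 3 replicates. They numbered 215 of 30000 peaks, and 72 of them were also in the optimal set, which the authors obtained with a threshold on the recurrence of ranks and which was made up of the strongest peaks of the pooled list. Binding was measured by chromatin immunoprecipitation and sequencing in whole embryos of 2 to 18 h, male and female pooled, from a transgenic line that stably expresses Prospero with GFP fused at its C terminus. The embryo age follows the source names, because the value in the age label is too large to be an embryo's. The descriptions name an anti-GFP antibody, the antibody label reads pros, and the chromatin was sonicated to fragments of 200 to 800 bp. All 3 biological replicates carried this fusion, so there was a single group with no other genotype, stage or treatment, and the control library was not used here. Whole embryos mix cell types, so a peak cannot be assigned to any of them. The labels do not say how the embryos were collected, so the spread between replicates may be partly technical.

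Prospero is a homeodomain transcription factor. A neuroblast, or neural stem cell, hands it at division to the smaller daughter, where it enters the nucleus, represses genes of self-renewal and acts with genes of differentiation. Chromosome 4 is the smallest chromosome of the fly, the dot chromosome. It is rich in repeats and in the heterochromatin protein HP1, yet its genes are expressed and are coated by a protein of its own, POF. Several of its genes encode developmental regulators, among them the Pax6 genes ey and toy and the Hedgehog pathway effector ci.

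Sequences at 6 of the 10 strongest chromosome 4 summits are shown, because the ranks described below turn on the genes dati, Asator, ci and zfh2. The summit is the position that the authors' caller marked inside a peak. Each sequence is the 101 bp centred on the summit, on the dm6 build, from the RefSeq copy of that assembly. None holds annotated UTR bases. Capitals mark AAGACG, a short core searched here as the Prospero core, or its reverse complement CGTCTT, which stood in 3 of the 6. The rest of the 10 strongest, not shown, had no core within 100 bp of the summit.
dati upstream of an internal start (chr4:388976-389076, plus strand): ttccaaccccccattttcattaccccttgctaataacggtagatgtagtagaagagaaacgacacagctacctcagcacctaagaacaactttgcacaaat
Asator promoter (chr4:489337-489437, plus strand): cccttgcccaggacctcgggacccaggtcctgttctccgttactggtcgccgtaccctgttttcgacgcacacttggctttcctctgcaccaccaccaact
ci upstream, exon of the antisense RNA (chr4:60195-60295, plus strand): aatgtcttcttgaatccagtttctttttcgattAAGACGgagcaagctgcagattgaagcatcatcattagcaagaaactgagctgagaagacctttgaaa
zfh2 promoter (chr4:501649-501749, plus strand): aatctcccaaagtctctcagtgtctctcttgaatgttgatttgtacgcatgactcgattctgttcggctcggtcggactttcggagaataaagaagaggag
ci upstream, intron of the antisense RNA (chr4:59079-59179, plus strand): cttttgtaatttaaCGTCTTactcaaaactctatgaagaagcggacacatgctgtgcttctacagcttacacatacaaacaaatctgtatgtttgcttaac
dati internal promoter (chr4:393562-393662, plus strand): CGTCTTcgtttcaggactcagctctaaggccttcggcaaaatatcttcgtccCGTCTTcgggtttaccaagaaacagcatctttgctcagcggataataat

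Chromosome 4 held few peaks for its length, but a larger share of them were strong. The pooled list had 159 peaks per Mb on chromosome 4, which is 1.35 Mb long, against 214 to 239 per Mb on the other arms. In the optimal set the order turned, with 53.4 peaks per Mb on chromosome 4 and 40.3 on X to 49.4 on 2R. However, 50% of these chromosome 4 peaks lay in the stretch from dati to zfh2 described below, which spans 12.3% of the arm. The higher density rested on that stretch and did not hold over the rest of the arm. Of the 215 peaks, 33.5% were in the optimal set (95% exact Clopper-Pearson interval 27.2 to 40.2%, an interval of counting error alone that treats neighbouring peaks as independent). The background was 20.7% of all pooled peaks. Arm by arm, that share was 18.1% on X, 20.2% on 3L, 20.3% on 2L, 21.6% on 3R and 22.6% on 2R, each below the chromosome 4 value.

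The replicate lists gave the same order. Each list holds 30000 peaks, so the number of peaks says nothing of depth, which is unknown because no read counts are in the lists. Replicates 1, 2 and 3 had 225, 256 and 194 peaks on chromosome 4, or 167, 190 and 144 per Mb. The other arms had 225, 224 and 225 per Mb. The density was 167 ± 23.0 per Mb on chromosome 4 (SD, n = 3) and lower than on the other arms in all 3 replicates, with a mean difference of -57.8 per Mb. The exact two-sided sign-flip permutation test over the 3 replicate differences gave p = 0.25, the smallest p that 3 replicates allow, so no comparison with the other arms here can pass a threshold of 0.05.

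Each replicate list was then limited to its strongest peaks, as many as the optimal set holds, here called its strong peaks. Among them the density was 53.9 ± 2.38 per Mb on chromosome 4 and 46.3 per Mb on the other arms, higher on chromosome 4 in all 3 replicates. Strong peaks made up 32.9%, 29.3% and 35.6% of the chromosome 4 peaks in replicates 1, 2 and 3. On the other arms they made up 20.6% in each. The mean difference of 12 percentage points had an SD of 3.16 over the replicates (exact sign-flip permutation test, p = 0.25).

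**Figure D1:**
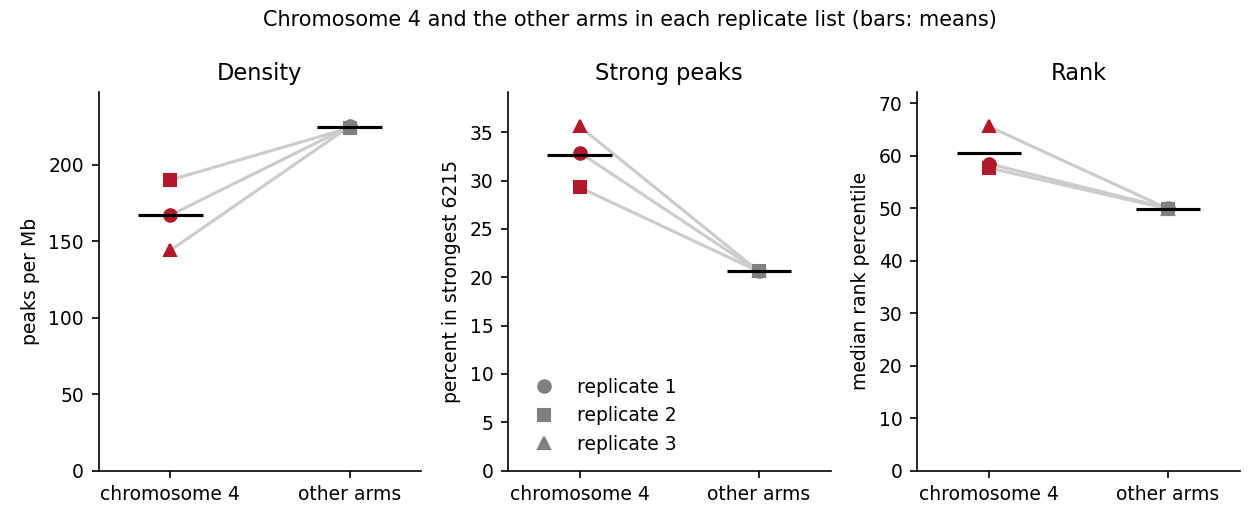
Points give, for each replicate list, chromosome 4 (red) and all other arms together (grey), with lines joining the values of a replicate and black bars at the means. The axes show peaks per Mb, the percent that are strong peaks of the list (as many as the optimal set holds) and the median rank percentile. Chromosome 4 lies below the other arms in density and above them in both measures of strength, in all 3 replicates.

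Ranks by the authors' signal were compared within a list, because the scale of the signal is not stated. On a rank percentile of 100 for the strongest peak, the median chromosome 4 peak of the pooled list stood at 62.3, and the medians of the other arms ran from 45.8 on X to 52.1 on 2R. The replicate medians were 58.5, 57.7 and 65.6 on chromosome 4 and about 50 elsewhere, a mean difference of 10.7 percentiles (SD 4.33, exact sign-flip permutation test, p = 0.25). The surplus sat at the top of the list. The strongest 10% of the pooled list held 45 of the 215 peaks (20.9%), and 8 peaks (3.72%) were in the strongest 1%. The weakest 10% held 19 (8.84%). Among the strongest 3000 peaks of a replicate alone, the median percentile of chromosome 4 was 94.3 ± 0.482, lower than the 95 of the other arms in all 3 replicates.

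**Figure D2:**
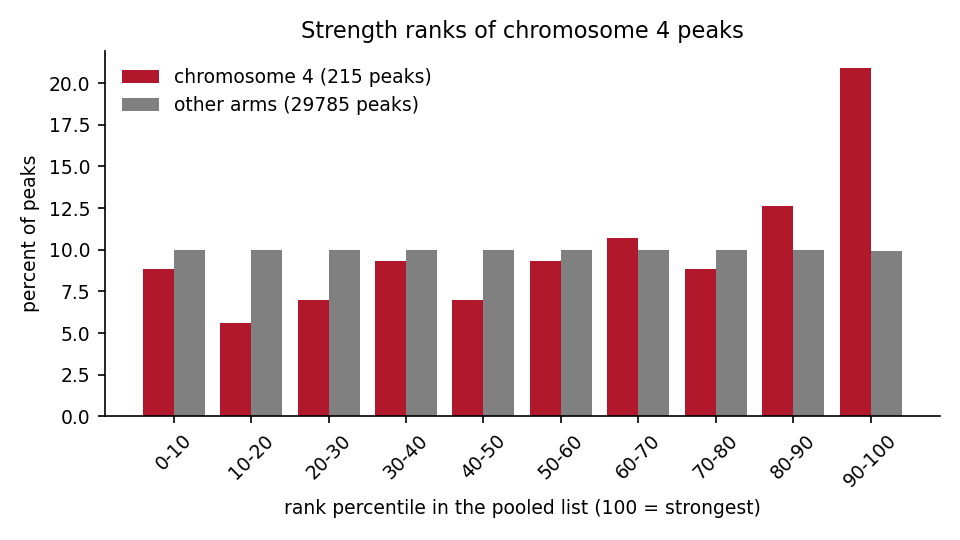
Bars give the percent of chromosome 4 peaks (red) and of peaks on the other arms (grey) in steps of 10% of the pooled list, ordered by rank percentile from weakest to strongest. The strongest 10% holds 20.9% of the chromosome 4 peaks and 9.92% of the others, and the next 10% 12.6% and 9.98%.

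A few sites carried much of the signal. The signal of the 215 peaks ranged from 48.0 to 5218, with a median of 154 against 116 on the other arms in the same list. The 3 strongest peaks made up 18.2% of the signal summed over chromosome 4, the strongest 10 made up 36.2% and the strongest 20 made up 46.8%. The optimal set was the strongest stretch of the pooled list, which ended at a signal of 252. Its weakest chromosome 4 members were an intronic peak of ey at rank 5757 with a signal of 266, an intergenic peak near fuss at rank 5822 with 265 and an intronic peak of toy at rank 5919 with 261. Just outside were an intergenic peak near lgs at rank 6241 with a signal of 251, the promoter peak of RpS3A at rank 6269 with 251 and an intronic peak of zfh2 at rank 6425 with 246.

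The strongest chromosome 4 peak lay in an intron of dati, a gene for a zinc-finger protein known from female courtship. Its summit at position 389026, 704 bp upstream of a start site inside the gene, ranked 17 of 30000 in the pooled list. In replicates 1, 2 and 3 it ranked 16, 17 and 23. Its signal in the pooled list was 5218. Further dati peaks followed at rank 596 (summit 393612, 202 bp upstream of another dati start site, with 2 cores in its window), at rank 745 in an intron and at rank 1057 in the promoter of the non-coding RNA lncRNA:CR45125 inside dati.

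Next was the promoter of Asator, which encodes a kinase of the tau-tubulin kinase family. The summit at 489387, 393 bp upstream of its start site, ranked 22 in the pooled list and 21, 21 and 26 in the replicates. A promoter further inside Asator had a summit at 482793 at pooled rank 576, and the replicates placed it at 490, 619 and 605. Asator was the nearest gene for 5 of the 20 strongest chromosome 4 peaks, and the others lay 2098 bp upstream, in a 5′ UTR and in an intron, at ranks 1261, 1303 and 1451.

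The gene ci, whose zinc-finger protein carries the Hedgehog signal to its target genes, had strong peaks on its upstream side. The summit at 60245 ranked 45 in the pooled list and 55, 39 and 55 in the replicates. It lay 3204 bp upstream of ci in an exon of the antisense RNA asRNA:CR43957. A neighbour at 59129, in an intron of that RNA and 2088 bp upstream of ci, ranked 92, with replicate ranks of 138, 62 and 115. Both carried the core within 50 bp of the summit. A promoter inside ci, with a summit 119 bp upstream of an internal start site, ranked 114 and stood at 101, 152 and 120 in the replicates.

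At zfh2, which encodes a large protein with zinc fingers and homeodomains, the promoter summit at 501699 ranked 54, and the replicates placed it at 50, 89 and 64. Further zfh2 summits in introns ranked 152, 246 and 1024. The widest peak of the chromosome was in zfh2 too, a region of 3837 bp (chr4:505011-508847) with 6 summits, of which 5 were in the optimal set. Of 152 separate regions on chromosome 4, 56 held several summits (36.8%, and 35.0% on the other arms).

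The rest of the 20 strongest were the promoter of CaMKI, a calcium- and calmodulin-dependent kinase, at rank 859, the promoter that lies between PMCA, a calcium pump of the plasma membrane, and Hcf, a chromatin cofactor, at rank 966, another peak upstream of ci at rank 1118 and an intronic peak of CG33941 at rank 1153. All 20 were matched within 150 bp in all 3 replicate lists, and all 20 were strong peaks of each. The replicate ranks were closest together at the top (18.7 ± 3.79 for dati, 22.7 ± 2.89 for Asator, mean ± SD, n = 3). Below they lay further apart, as with 571 ± 70.8 at the Asator peak of rank 576. The widest spread of the 20 was at the ci peak of rank 1118, with 1237, 1053 and 3010. Small ranks leave less room to differ, so these SDs cannot show that the top peaks recurred more closely.

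**Figure D3:**
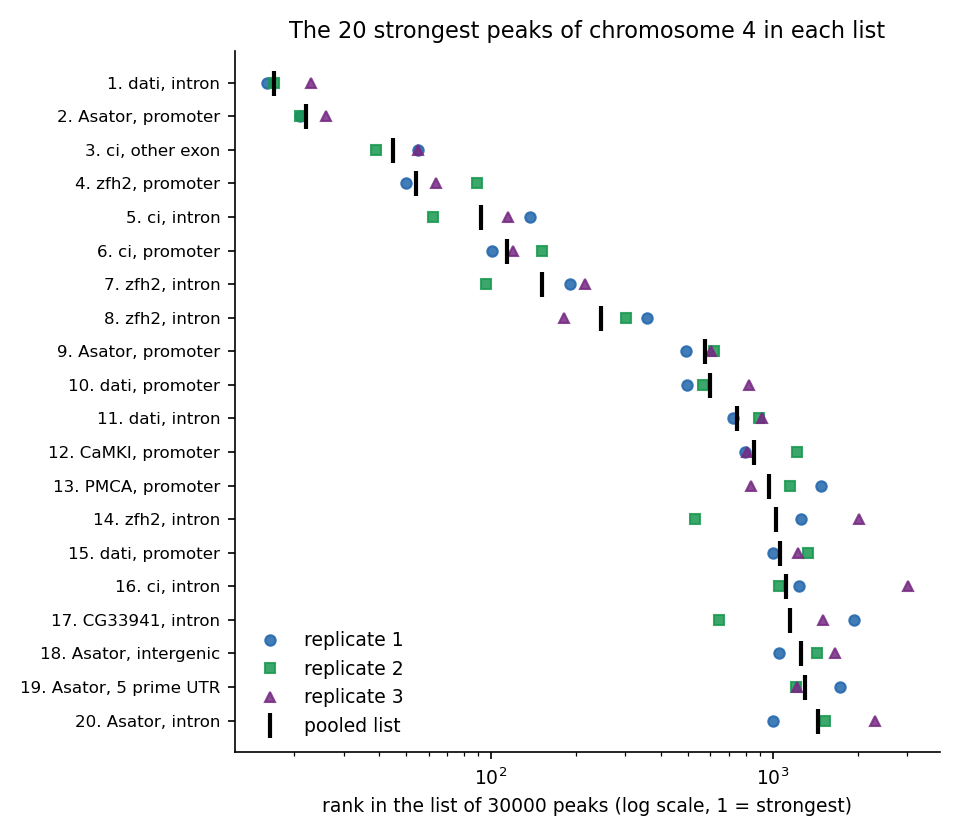
Symbols give the rank of each of the 20 strongest chromosome 4 peaks in the 3 replicate lists, and black ticks the rank in the pooled list, on a logarithmic axis where 1 is the strongest of 30000. Labels give the gene with the nearest protein-coding start site and the annotation class, which can belong to a non-coding gene. The strongest peak ranks 16, 17 and 23, and the first 8 peaks are all within rank 357 in each replicate, while the next starts at 490.

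Most chromosome 4 peaks recurred. Of the 215, 131 (60.9%) had a summit within 150 bp in all 3 replicate lists, where the background over all pooled peaks was 53.5%. Matches in 2 lists were found for 63, in 1 list for 19 and in none for 2. Of the 72 optimal members, 70 (97.2%) were matched in all 3 lists, beside 94.4% of the whole optimal set, and 51 (70.8%) were strong peaks of every replicate, beside 63.5%. The same replicate summit could match several pooled summits, so a summit can count as recurrent or strong through its neighbour. For example, those at 981176 and 981381 were matched to the same ranks, 3198 in replicate 1 and 2253 in replicate 2. Of the 143 weaker members 42.7% were matched in all 3, the same share as on the other arms (42.7%). Between replicates, 68.7% of chromosome 4 peaks were matched in the pair of replicates 1 and 2, 73.9% in that of 1 and 3, 72.5% in that of 2 and 3. The other arms gave 65.8%, 66.5% and 65.4% for the same pairs, so chromosome 4 was higher in each pair, by 5.82 percentage points on average. The pairs share replicates, and no test was run on them.

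The developmental transcription factors of the chromosome held most of the summits counted at its genes. A summit was given to a gene when it lay in the gene body or up to 1 kb upstream. Of 80 protein-coding genes, 36 (45%) had a summit of the pooled list, close to the 45.9% of all protein-coding genes, and 44 had none. A summit of the optimal set was found at 18 (22.5%), where the background was 17.9%. Of the 13 transcription factor genes listed, 11 had a pooled summit and 10 had an optimal one, with 92 pooled and 32 optimal summits in all. The median length of these 13 genes was 20 kb, against 10.1 kb for all chromosome 4 genes, and the part of gene length in these counts was not tested. Over the 55 listed genes found on the chromosome, 30 had a pooled and 16 an optimal summit, with 129 pooled and 44 optimal summits counted. The 25 genes on no list had 17 and 4. A summit near several genes counts at each. Only 47 of the 72 optimal summits lay at a protein-coding gene by this rule. The rest, among them the ci upstream peaks at ranks 45 and 92, are outside these counts.

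The gene with most pooled summits was ey, a Pax6 gene of eye development, with 17, of which 5 were in the optimal set. Its replicate counts were 16, 15 and 17, so the lists differed little. The SoxD factor Sox102F had 16 pooled summits and 14, 18 and 13 in the replicates, yet 2 were in the optimal set. For zfh2 there were 15, of which 9 were optimal, and for dati 10, of which 7 were optimal. The replicates counted 16, 22 and 18 summits at zfh2 and 10, 10 and 11 at dati. The best summit counted at ey ranked 2578 and that at Sox102F ranked 2196, below those of dati at 17 and of zfh2 at 54. An optimal summit 1311 bp upstream of Sox102F, outside the count, ranked 1838. So many summits in a gene did not go with a top rank at ey and Sox102F, while zfh2 and dati had both.

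Other regulators had fewer. The Wnt pathway factor pan had 8 pooled and 2 optimal summits, and its best rank was 3302. The onecut gene, for a cut-homeodomain factor, and sv, a Pax2 gene, had 6 pooled and 2 optimal each. The Ski family gene fuss had 5 pooled and 1 optimal, and toy, the second Pax6 gene, 4 pooled and 1 optimal. The toy counts in replicates 1, 2 and 3 were 6, 7 and 0, so replicate 3 had no summit in the gene or up to 1 kb upstream. The optimal summit counted at toy ranked 5919. Optimal summits nearest to toy but more than 1 kb upstream, at 984940 and 988585, ranked 2430 and 5233. In replicate 3 they were matched at ranks 2499 and 6748. The forkhead gene fd102C had a single pooled summit at rank 8479 and none in the optimal set. Optimal summits with fd102C as the nearest gene lay further away, 6818 and 8073 bp upstream, at ranks 2042 and 5051. No pooled summit was found at NfI or at Mitf. The ci gene counted 4 pooled and 1 optimal summits here, since its strong upstream peaks lay beyond 1 kb.

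Of 12 genes of signalling and guidance, 7 had a pooled and 4 an optimal summit, where the background over all protein-coding genes was 45.9% and 17.9%. Asator had 8 pooled and 7 optimal. The calcium-dependent kinase CaMKI and the TGF-beta family ligands mav and Actbeta had 1 optimal summit each, at ranks 859, 1681 and 2052. The semaphorin receptors PlexA and PlexB had a pooled summit each, at ranks 20163 and 19227. The guidance genes Ephrin and Eph, the TGF-beta family ligand myo, the adaptor Crk and the kinase Dyrk3 had none. The gene lgs, for a cofactor of Wnt signalling, had 1 pooled summit at rank 11972.

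The lists that follow are short, so their counts cannot be told from the background of 45.9% with a pooled and 17.9% with an optimal summit. Of 7 genes of the synapse, the calcium sensor Syt7, the transporter Gat and the glutamate receptor Ekar had pooled summits, at best ranks 10959, 14396 and 9967. No gene of the synapse list had one in the optimal set. Of 5 genes of RNA and translation, gw, of the microRNA silencing machinery, and RpS3A had pooled summits and no gene an optimal one. Of 5 genes of chromatin and general transcription, 3 had a pooled summit and Hcf an optimal one, the summit it shares with PMCA. The Polycomb group gene pho had none. Of 13 genes of metabolism, transport and structure found, 4 had a pooled summit and PMCA an optimal one. Among these, the DNA glycosylase gene Tdg had 5 pooled summits and no optimal one, and its best summit was the one it shares with Pur-alpha. Of the 25 genes on no list, 6 had a pooled summit and CG11360 and CG33941 an optimal one.

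**Figure D4:**
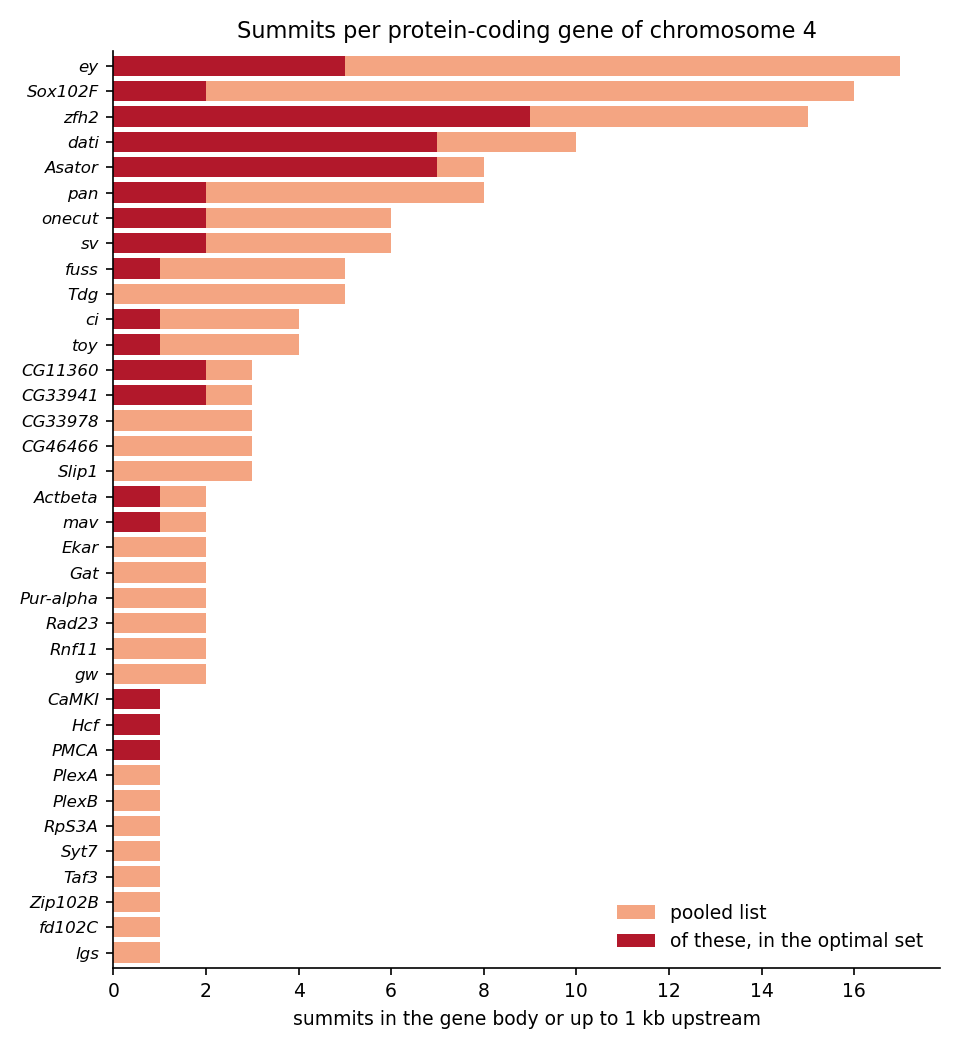
Bars give the number of summits in the body or up to 1 kb upstream of each of the 36 chromosome 4 protein-coding genes with a summit, in the pooled list (full bar) and in the optimal set (dark part). A summit near several genes counts at each. The genes ey and Sox102F lead with 17 and 16 pooled summits, and zfh2, dati and Asator hold the most optimal ones, with 9, 7 and 7.

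Genes of chromosome 4 are long, and longer genes more often had a summit. The median length was 10.1 kb against 2.16 kb on the other arms. Genes with an optimal summit had a median of 18.9 kb and those without had 9.20 kb. By length, 11.1% of chromosome 4 genes up to 5 kb, 18.2% of those of 5 to 10 kb, 22.2% of those of 10 to 20 kb and 46.2% of the longer ones had an optimal summit. On the other arms the shares were 10.1%, 28.3%, 46.9% and 56.8%, so above 5 kb each length class had a lower share on chromosome 4. The longest class on chromosome 4 holds 13 genes, and no test was run. In the replicate lists, 46.2%, 56.2% and 45% of chromosome 4 genes had a summit, and 45.6%, 45.4% and 49.4% of the genes elsewhere. The difference of 2.36 percentage points was smaller than its SD of 7.79 (exact sign-flip permutation test, p = 0.75), and without replicate 2 it was -1.89.

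Binding was uneven along the chromosome. In steps of 100 kb from its start, the pooled summits numbered 23, 3, 0, 17, 55, 22, 23, 18, 24, 18, 9, 3, 0 and, in the short last step, 0. The step with 55 held 20 of the 72 optimal members. It lies in the stretch from the start of dati to the end of zfh2, a stretch chosen after its values were seen, which spans 165 kb (12.3% of the arm). That stretch held 81 of the 215 pooled members (37.7%) and 36 of the 72 optimal ones (50%), and 85, 90 and 84 summits in the replicates. It also held 15 of the 20 strongest. Without this stretch, the density of optimal summits on the arm was not above that of the other arms. Between the end of dati and the start of lgs, 41.4 kb without a protein-coding gene held 34 pooled and 9 optimal summits, the best at rank 1725. Outside the dati to zfh2 stretch, 36 of 134 members were in the optimal set (26.9%), and the median percentile of the 134 was 58.0. That share lay below the interval of 27.2 to 40.2% given for all 215. The background was 20.7%. No interval was computed for the 134, so whether their share differs from the background was not tested.

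Other clusters were smaller. The ey stretch of 26.7 kb up to the start of bt held 19 pooled and 5 optimal summits. Sox102F and fd102C, over 53.1 kb, held 24 and 6. The 45.6 kb from fuss to toy held 17 and 7, and the replicates counted 20, 20 and 14 there. The 21.4 kb between PlexB and RpS3A, which hold ci and its antisense neighbour, had 14 pooled and 5 optimal summits. These stretches were likewise chosen after the values were seen.

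Of the 5 longest stretches without a pooled summit, the longest, 243 kb at the end of the arm (chr4:1105095-1348131), has 11 whole protein-coding genes, among them pho, Mitf, the calsyntenin gene Cals, the kinesin gene Kif3C and Cadps, whose protein acts in vesicle release. Each replicate list had 1 summit there, which did not lie in the body or up to 1 kb upstream of any of the 11 genes. The stretch begins beside the pooled summit at 1105094, which was matched within 150 bp in all 3 lists. A stretch of 131 kb (chr4:175498-306786) with Crk, NfI and Syt7 had 0, 4 and 1 summits in the replicates. A stretch of 108 kb (chr4:852814-960364) with unc-13, mGluR and eIF4G1 had 7, 9 and 2, so summits were called there in every replicate list and not in the pooled one. The stretch of 90.5 kb around Ank and anne had 1, 7 and 3, and that of 85 kb around bt, the gene of the muscle protein projectin, and MED26 had 1, 4 and 0. Transposons made up 46.6%, 25.0%, 20.6%, 17.6% and 17.9% of the bases of these 5 stretches in that order, and 24.8% of the arm. Their part in the lack of summits was not tested.

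Summits on chromosome 4 lay mostly in introns, promoters and between genes. A summit within 500 bp of a start site counted as promoter whatever else lay there, and the others were classed by the exon part, intron or intergenic sequence they fell in. Of the 215, 77 were in introns (35.8%), 67 in promoters (31.2%), 59 between genes (27.4%), 5 in coding sequence, 3 in other exons, 2 in a 5′ UTR and 2 in a 3′ UTR. Promoters take 10.2% of the bases of the arm, introns 42.1%, intergenic sequence 20% and coding sequence 18.0%. In the optimal set, 28 were in introns (38.9%), 24 in promoters (33.3%) and 16 between genes (22.2%), and the other arms had 41.9%, 34.1% and 19.9%.

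In the replicates the intronic share was 37.3%, 37.5% and 34.5% on chromosome 4 and 44.3%, 44.8% and 43.5% on the other arms. It was lower on chromosome 4 in all 3, with a mean difference of -7.75 percentage points (SD 1.04, exact sign-flip permutation test, p = 0.25, adjusted over the 7 classes 0.438). The promoter share was higher in all 3 by a mean of 2.19 points and the intergenic share in all 3 by 3.54, with SDs of 1.41 and 1.94. In each of the 3 common classes the chromosome 4 summits were more often optimal than those elsewhere. The shares were 35.8% against 25.4% for promoters, 36.4% against 19.4% for introns and 27.1% against 18.2% for intergenic summits. Median distance to the nearest protein-coding start site was 2687 bp for the 215 members and 2194 bp for the 72, and 22 of the 72 (30.6%) lay beyond 5 kb, beside 29.3% of the optimal peaks of the other arms.

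**Figure D5:**
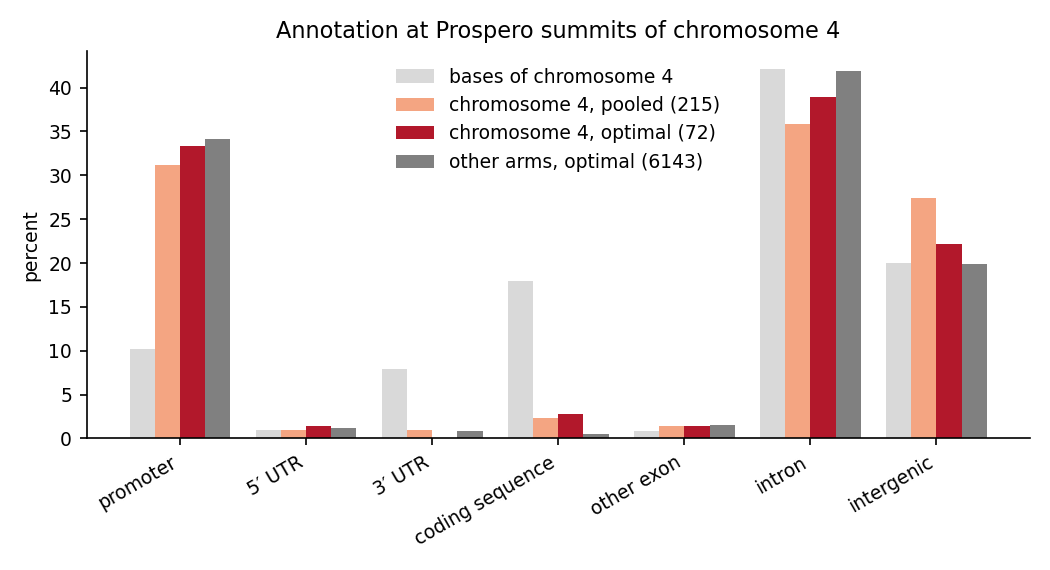
Bars give the percent in each annotation class for the bases of chromosome 4 (light grey), the 215 pooled summits (light red), the 72 optimal summits (red) and the 6143 optimal summits of the other arms (dark grey). Promoters hold 33.3% of the optimal summits and 10.2% of the bases of chromosome 4, and introns 38.9% and 42.1%.

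The core AAGACG, or CGTCTT on the other strand, was found within 100 bp of the summit at 24 of 215 peaks (11.2%, exact interval 7.28 to 16.2%). In equally wide windows 500 bp away on each side it was in 7.44%, a ratio of 1.50, and the core was in 6.66% of all windows of the arm. Among the 72 optimal summits 11 had it (15.3%), 1.69 times the share of their flanks. That flank share, 9.03%, rests on 5 windows on the left and 8 on the right. For the optimal summits of the other arms the core share was 11.2% and the ratio 2.21, with 5.09% in the flanks. The ratio was thus lower on chromosome 4 although the share at summits was higher. In the replicates the ratio to the flanks was 1.47, 1.28 and 1.62 on chromosome 4 and 1.59, 1.52 and 1.45 elsewhere. The mean difference of -0.0660 was smaller than its SD of 0.206 (exact sign-flip permutation test, p = 0.75). Among the strong peaks of each replicate the ratio was 1.75 ± 0.151 on chromosome 4 and 2.20 ± 0.112 on the other arms, lower on chromosome 4 in all 3 replicates. Of the 25 cores in the windows, which reach 100 bp to either side, 15 lay within 50 bp of the summit. Whether cores gather at the summit was not tested. The members with the core had a median rank percentile of 70.8 and those without had 61.5, and 4 of the 20 strongest carried it.

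Other short motifs were as follows. GAGAGA, or TCTCTC on the other strand, is the element of the GAGA factor. It was in 7.91% of the pooled windows of chromosome 4 and in 13.5% of those of the other arms. All windows of chromosome 4 held it at 6.37%. In the optimal windows it was in 8.33% on chromosome 4 (exact interval 3.12 to 17.3%) and in 20% on the other arms. CAGGTAG or CTACCTG, the heptamer of the early embryonic factor Zelda, was in 1 of 215 windows (0.465%), beside 1.80% of the pooled windows of the other arms and 1.21% of all chromosome 4 windows. The letters TGGGAA or TTCCCA, a form of the Su(H) site of the Notch pathway, were in 10.7% of the 215 windows. They were in 13.1% of the pooled windows of the other arms and 9.70% of all chromosome 4 windows. In the optimal windows they were in 8.33% on chromosome 4 and 13.2% on the other arms. No test was run on these shares, and a match is not a shown site.

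GC content was lower at chromosome 4 summits than at those of the other arms in all 3 replicates, while the repeat share had no common direction over the replicates. The arm as a whole has 35.2% GC and 27.8% soft-masked bases, against 41.6 to 42.6% and 18.1 to 21.2% on the other arms. Transposons cover 24.8% of chromosome 4, against 4.06 to 7.74% of the other arms. Median GC of the summit windows was 40.8% for the 215 members, 42.8% for the optimal ones and 46.8% for the optimal ones of the other arms. In the replicates it differed from that elsewhere by -5.14 percentage points (SD 0.760, lower in all 3, exact sign-flip permutation test, p = 0.25). The mean soft-masked share was 16.3% for the 215 windows and 15.5% for the pooled windows of the other arms. In the replicates it was 17.3%, 18.5% and 15.4% on chromosome 4 and 15.3%, 15.7% and 15.6% elsewhere, higher in 2 of 3, and the mean difference of 1.55 percentage points was within its SD of 1.57 (exact sign-flip permutation test, p = 0.5). For the optimal windows it was 10.3% on chromosome 4 and 15.8% elsewhere. No masked base was found in 43.1% of the optimal windows of chromosome 4 (31 of 72), in 28.4% of its 215 windows and in 23.3% of the optimal windows of the other arms. Of the 215 summits, 14 (6.51%) lay in an annotated transposon, against 0.215% on the other arms, and 8 of them were in 1360 elements and 7 in INE-1 elements, with some in both. Summits in transposons were weak, with a median percentile of 31.9 against 65.0 for the rest. A single one was in the optimal set, in an intron of asRNA:CR44030 near 4E-T, at rank 5698. Of the 14, 6 were matched in all 3 replicate lists. Reads from repeated sequence can be hard to place, how the authors treated them is not given in the sources used here, and their part in these ranks was not tested.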

How the data were processed

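Prospero-GFP binding was measured by ChIP-seq in 3 biological replicates of whole embryos, which form a single group, and the labels name no batch. The deposited files are narrowPeak lists on the dm6 build, per the labels and the file headers: a list of 30000 peaks per replicate and from pooled reads, and an optimal set of 6215 peaks thresholded on irreproducible discovery rate. The aligner, the caller and the value of that threshold were not given in the sources used here. The authors' signal per peak, a score on an unstated scale, was used to rank peaks within a list. The deposited −log10 q-value was read only to describe the lists; it was 4.30 for the optimal members. Read depth is unknown, so intervals cover counting error only.

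The members, gene lists and comparisons were chosen with earlier results of these data known. Genes came from Ensembl release 115 (BDGP6, dm6 coordinates), over all gene types except transposons and pseudogenes for classes and over protein-coding genes for distances and counts, with sequence from the RefSeq copy of the assembly. Positions are 1-based. Summits were matched within 150 bp, and motifs were searched in 201 bp windows. Strong peaks are the strongest 6215 of a replicate list. Classes were assigned in the order promoter, 5′ UTR, 3′ UTR, coding, other exon, intron, intergenic. Chromosome 4 was compared with the other arms in each replicate list by an exact two-sided sign-flip permutation test over 3 differences, with Benjamini-Hochberg adjustment over the 7 classes. Named genes are those of the 20 strongest peaks, the genes with most summits, the genes of the lists, the 5 longest stretches without a summit and the peaks at the edge of the optimal set. Of 56 listed symbols, 55 were found on the chromosome, some through older names. Matching and motif search were tested on simulated data and the permutation test on set values. Of the classes, only promoter was checked, on the annotated start sites of chromosome 4. Python 3.11.15, numpy 2.4.6, pandas 2.3.3 and scipy 1.17.1 were used. Alternatives left out each replicate, took 1 summit per region, left out X, kept the strongest 6215 or 3000 peaks, and changed the match distance, promoter distance, gene rule and window.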

Additional observations from a re-analysis of the deposited data

How the results depend on the processing

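Of 125 alternative values over 15 comparisons of chromosome 4 with the other arms, 114 kept their direction and 11 reversed, and no p could pass 0.05 under any setting. Chromosome 4 minus the other arms is given throughout. With the strong peaks alone, or with the strongest 3000 of a list, the difference in peaks per Mb was 7.56 or 11.3 in place of -57.8, and that in mean soft-masked share was -5.50 or -6.87 in place of 1.55 percentage points. With the strongest 3000 the difference in median rank percentile was -0.727 and that in intergenic share was -0.219. The 5′ UTR share differed by -0.306 with promoters of 1000 bp. The share of genes with a summit ran from -1.89 to 5.76 percentage points when a replicate was left out, and was -1.89 without replicate 2. The core ratio differed by 0.0248 with windows of 200 bp to either side and by 0.0685 with 1 summit per region, and ran from -0.180 to 0.0190 with a replicate left out. The cause of these reversals was not tested. The share of members in the optimal set was 26.9% without the stretch from dati to zfh2, a setting chosen after seeing the data. So were those for the mean replicate ranks of the 5 strongest peaks: with a match distance of 50 or 300 bp the ranks were unchanged, and the mean rank of the dati peak ran from 16.5 to 20 with a replicate left out. Fixed list lengths and unknown depth limit how far densities can be read.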
